A study of Mus musculus with 4 samples.

Results

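The genes examined here are 8 genes of the signals by which a phagocyte decides whether to engulf another cell. They were Cd47, Sirpa, Calr, Cd24a, Siglecg, Pilra, Anxa1 and Lrpap1, taken by symbol from the 27998 genes listed in the deposited single-cell counts, and each symbol had 1 row. CD45+ cells, that is leukocytes, had been isolated from the nasal mucosa of C57BL/6 mice aged 8 weeks in a model of allergic rhinitis. Mice had vehicle or ribavirin, an antiviral drug, and were either exposed or not exposed to the allergen ovalbumin (OVA), which gave the libraries Vehicle, Vehicle-OVA, Ribavirin and Ribavirin-OVA, 1 for each group. In the model described by the study, female mice are sensitized with OVA in alum and then challenged with OVA through the nose. The number of mice behind a library is not stated, and the labels name magnetic beads for the isolation of CD45+ cells where the series text names fluorescence-activated sorting. Because a group had 1 library, the variation between mice is not measured and no difference was tested, and every interval below is a 95% interval for counting error alone.

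Removal of dying cells by macrophages, called efferocytosis, depends on a balance of signals at the surface of the target. Phosphatidylserine and calreticulin at the surface act as eat-me signals, the latter through the receptor LRP1, while CD47 and CD24 act as do-not-eat-me signals through the inhibitory receptors SIRPα and Siglec-G of the eater. Neutrophils are short-lived and are the usual targets in an inflamed mucosa, where annexin A1, which neutrophils release, also promotes their uptake.

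The 4 libraries held 10311 to 28277 barcodes and 91742940 to 171873110 UMIs, where 1 UMI counts 1 captured mRNA molecule. After filters 66041 of 79132 cells were kept and fell into 38 clusters, and any 2 libraries shared 57 to 174 barcodes. The shallowest barcode of Ribavirin held 1782 UMIs, whereas elsewhere it held 500 or 501. Macrophage-like cells numbered 4450 in Vehicle, 2281 in Vehicle-OVA, 3301 in Ribavirin and 1561 in Ribavirin-OVA, and neutrophil-like cells numbered 3554, 9659, 4241 and 1677 in the same order. Macrophage-like cells had medians of 9257.5 to 9837 UMIs per cell and neutrophil-like cells 2027 to 2962 UMIs. The summed level of 12 neutrophil markers was 87696 to 144894 CPM (UMIs of a gene per 1000000 UMIs of the class, summed over its cells in a library) in neutrophil-like cells and 466 to 1817 CPM in macrophage-like cells. T cell-like cells, which should lack these genes, had 439 to 1918 CPM. Both classes thus had neutrophil transcripts in like amounts, most in Vehicle-OVA, and this level is taken below as the background of free RNA in droplets. A cluster led by Siglecf stayed unnamed: it held 3094, 762, 2144 and 885 cells, and the eosinophil gene Epx had 0 UMIs in it in each library.

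The make-up of both classes differed between libraries with and without OVA. A cluster led by C1qb and Ly6i held 79.9% of the macrophage-like cells of Vehicle and 78.8% of those of Ribavirin, whereas a cluster led by Ccl24 and Arg1 held 89.3% of those of Vehicle-OVA and 86% of those of Ribavirin-OVA. Summed over 12 macrophage markers, the class had 41730, 18039, 40643 and 23394 CPM in the order Vehicle, Vehicle-OVA, Ribavirin and Ribavirin-OVA, which is the order of every list of 4 values below. A cluster led by Cxcr2 held 56.4%, 7.24%, 60.0% and 27.6% of neutrophil-like cells. A cluster led by the heat shock gene Hspa1b and Hmox1 held 5.32%, 51.5%, 2.90% and 27.4% of them, and a cluster led by Serpinb2 and Csf3 held 24.9% of those of Vehicle-OVA and at most 1.49% elsewhere. For the genes examined here, class values with and without OVA are therefore in most cases given together with values within clusters. For the other genes named below, such as partner genes, values with and without OVA are those of whole classes only. Whether their differences with OVA hold within clusters was not tested, so a part of cluster make-up in them is not known.

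Across the 12 classes that had at least 50 cells in every library, the 8 genes had different homes. Sirpa and Lrpap1 were highest, on the mean of the libraries, in macrophage-like cells, Cd24a in neutrophil-like cells, Pilra in the Siglecf-led cluster, Cd47 in plasmacytoid dendritic (pDC)-like cells, Calr in plasma cell-like cells, Siglecg in B cell-like cells and Anxa1 in epithelial-like cells. The first place was held in all 4 libraries by Sirpa in macrophage-like, Cd47 in pDC-like, Calr in plasma cell-like and Siglecg in B cell-like cells. Cd24a led the Siglecf-led cluster in 3 of 4 libraries, Pilra of that cluster led neutrophil-like cells in 3 of 4, Lrpap1 in macrophage-like cells led epithelial-like cells in 3 of 4, and Anxa1 in epithelial-like cells led neutrophil-like cells in 2 of 4. Counts come from transcript ends and were not scaled by length, so levels are compared between cells and libraries for 1 gene and not between genes.

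**Figure D1:**
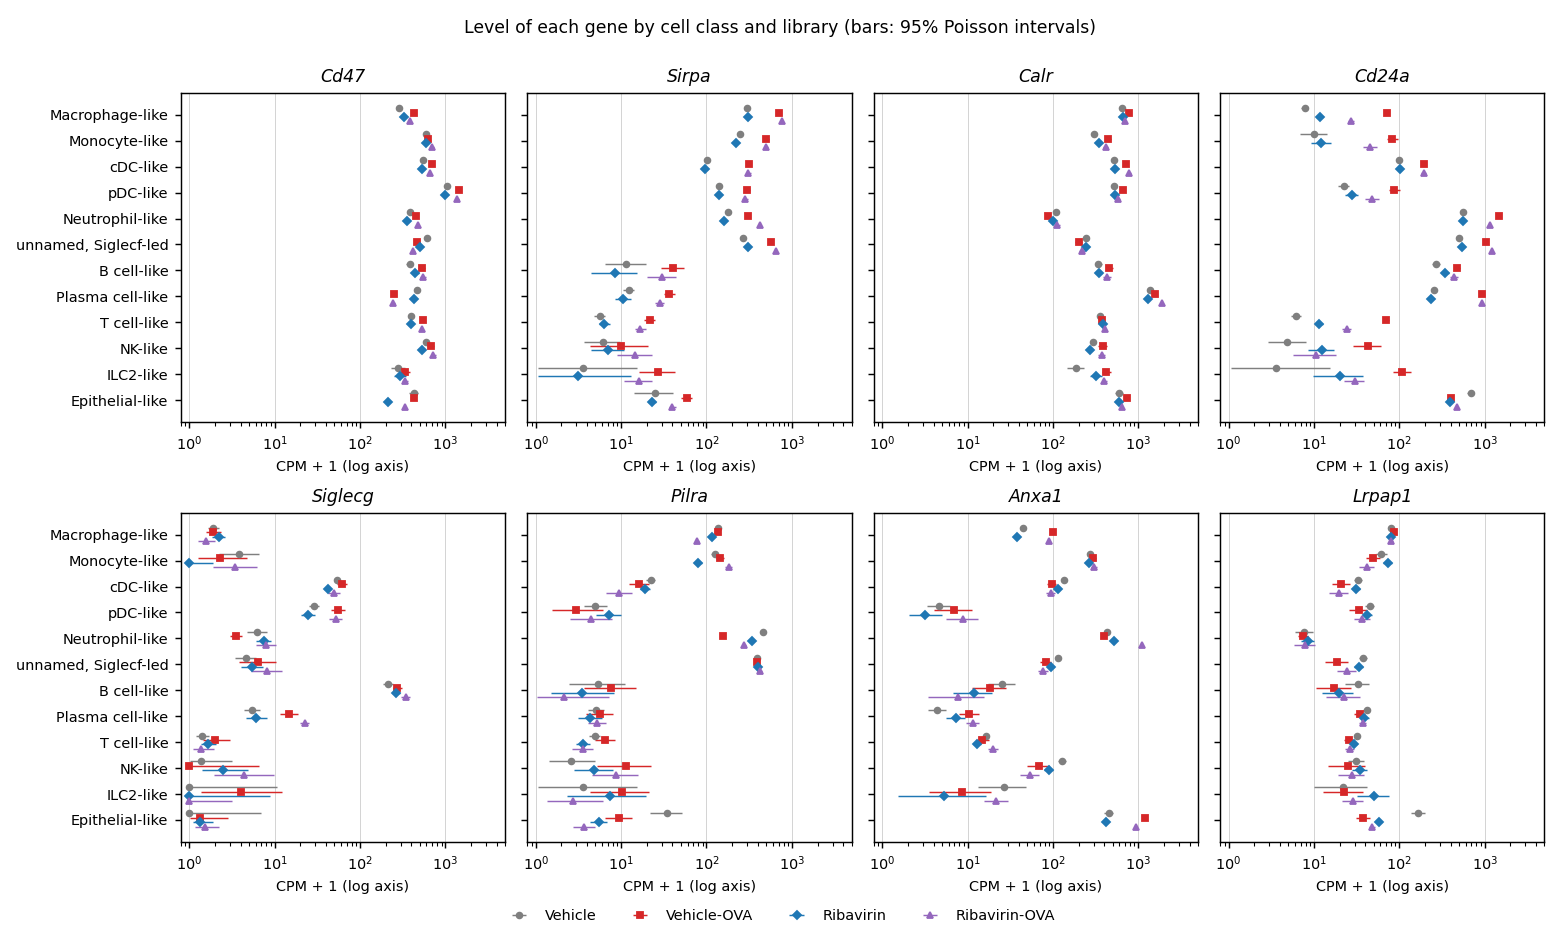
Each panel plots 1 gene, with cell classes on the vertical axis and CPM + 1 on a logarithmic horizontal axis, 1 point per library and bars for exact Poisson 95% intervals. Sirpa points with OVA lie to the right of those without OVA in every class, and Calr and Lrpap1 are lowest in neutrophil-like cells.

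The first comparison set macrophage-like cells, the eaters, against neutrophil-like cells, the targets, within each library. Calr and Lrpap1, 2 of the 8 genes, were at least 2-fold higher in macrophage-like cells in all 4 libraries, where 30.2% of the 12993 genes with at least 50 UMIs met the same rule. Cd24a and Anxa1, again 2 of 8, were at least 2-fold lower in all 4, against 6.53% of genes. The mean log2 ratio over the 4 libraries was 3.37 ± 0.11 (SD, n = 4 libraries that differ in treatment) for Lrpap1, 2.78 ± 0.26 for Calr, 0.94 ± 0.21 for Sirpa, -0.23 ± 0.17 for Cd47, -1.34 ± 0.77 for Pilra, -1.68 ± 0.60 for Siglecg, -3.17 ± 0.82 for Anxa1 and -5.38 ± 0.76 for Cd24a. The median of all genes lay above 0, at 0.56 to 1.03 in the 4 libraries, so that Sirpa stood close to that median and Cd47 below it. All 8 genes kept the same sign in each of the 4 libraries.

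**Figure D2:**
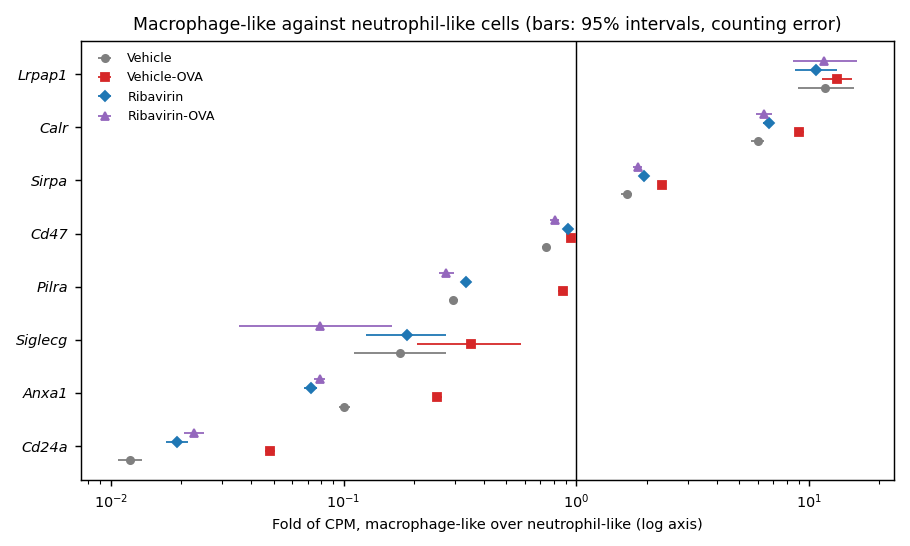
Fold of CPM in macrophage-like over neutrophil-like cells on a logarithmic axis, 1 point per gene and library, with 95% intervals for counting error and a line at equal levels. Lrpap1, Calr and Sirpa lie to the right of the line in all 4 libraries and the other 5 genes to its left.

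Cd47 encodes the ligand that tells phagocytes not to engulf a cell, and its gene lies at chr16:49800533-49915010 on the plus strand (GRCm38, GENCODE M21, as for all positions of genes here). It was widely measured: in neutrophil-like cells Cd47 stood at 379, 446, 351 and 471 CPM, and in macrophage-like cells at 281, 423, 323 and 380 CPM. The target class was thus slightly above the eater class in each library, the fold of macrophage-like over neutrophil-like cells running from 0.741 (interval 0.712 to 0.771) in Vehicle to 0.948 (0.924 to 0.973) in Vehicle-OVA. Monocyte-like cells had 590, 620, 595 and 703 CPM of Cd47, above macrophage-like cells in every library. The highest levels were those of pDC-like cells, 1033, 1434, 993 and 1377 CPM. ILC2-like cells were the lowest class on the mean, at 277 to 338 CPM, and the order of the last 4 classes (macrophage-like, epithelial-like, plasma cell-like and ILC2-like) differed between libraries.

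Cd47 was higher with OVA in both classes in the main processing, by less than 1.5-fold in 3 of the 4 pairs. Under the alternatives of the closing section its log2 ratio stayed above 0 only in macrophage-like cells under vehicle, at 0.21 to 0.75. It was as low as -0.091 in macrophage-like cells under ribavirin (TMM scaling). In neutrophil-like cells it was as low as -0.16 under vehicle (Siglecf-led cluster added) and -0.14 under ribavirin (TMM scaling). In neutrophil-like cells the fold with OVA was 1.18 (1.13 to 1.22) under vehicle and 1.34 (1.28 to 1.41) under ribavirin, beside median log2 ratios of all genes of -0.24 and 0.49, so that relative to the median the gene was 0.48 higher and 0.07 lower on the log2 scale. In macrophage-like cells it was 1.5 (1.46 to 1.55) and 1.17 (1.14 to 1.21), and within the 3 macrophage-like clusters the fold lay between 0.804 and 1.32. Neutrophil-like clusters spread more widely, from 0.590 to 2.40, with 10 of 11 pairs higher and 4 of them past 1.5-fold. The highest was the Hspa1b-led cluster under vehicle, at 2.40 (1.88 to 3.10), and the pair that was lower was the Cxcl3-led cluster under ribavirin, at 0.590 (0.386 to 0.866). The opposite direction was seen in plasma cell-like cells, where Cd47 stood at 249 CPM with OVA against 458 CPM without under vehicle and at 245 against 425 CPM under ribavirin, a fold of 0.544 (0.511 to 0.580) and 0.577 (0.547 to 0.608). Median log2 ratios of all genes in plasma cell-like cells were 0.49 and 0.51. Cd47 was also lower with OVA in the Siglecf-led cluster, at 462 CPM with OVA against 613 CPM without under vehicle and at 418 against 497 CPM under ribavirin. The remaining 10 classes were higher in both pairs.

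Sirpa encodes SIRPα, the receptor of myeloid cells that binds CD47 and restrains phagocytosis, and the gene lies at chr2:129592835-129632228 on the plus strand. Macrophage-like cells had 295, 715, 308 and 774 CPM of Sirpa. Neutrophil-like cells had 179, 307, 158 and 423 CPM, the Siglecf-led cluster 264, 568, 306 and 644 CPM, and monocyte-like cells 246, 503, 221 and 501 CPM. In all 4 of these classes both OVA libraries stood above both libraries without OVA, and the values without OVA lay close together. T cell-like cells, which should lack the gene, had 4.61, 20.8, 5.36 and 15.9 CPM.

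The fold of Sirpa with OVA over without was 2.42 (2.37 to 2.48) under vehicle and 2.51 (2.45 to 2.58) under ribavirin in macrophage-like cells, and 1.71 (1.62 to 1.81) and 2.67 (2.52 to 2.83) in neutrophil-like cells. After the median log2 ratio of all genes was taken off, the differences were 1.07 and 1.09 for the macrophage-like class and 1.02 and 0.92 for the neutrophil-like class, close to each other. The share of macrophage-like cells with a Sirpa UMI, after each cell had been thinned to 1000 UMIs, was 25.9%, 49.0%, 27.1% and 54.3% (unthinned 86.1%, 91.6%, 87.2% and 94.0%). In neutrophil-like cells it was 15.1%, 24.7%, 14.9% and 34.9% (unthinned 30.4%, 50.3%, 34.8% and 66.3%). In T cell-like cells, with medians of 4042.5 to 5126 UMIs, it was 0.629%, 2.41%, 0.467% and 1.84% (unthinned 2.18%, 8.66%, 3.00% and 8.35%), far under both.

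The higher Sirpa level was seen within clusters too. In the C1qb-led cluster Sirpa had 277, 599, 285 and 741 CPM, in the Ccl24-led cluster 319, 715, 409 and 767 CPM and in a cluster led by Ccl12 and Ccl7 376, 879, 402 and 876 CPM. All 6 pairs of macrophage-like clusters were at least 1.5-fold higher with OVA, from 1.88-fold to 2.60-fold, and so were all 11 pairs of neutrophil-like clusters with at least 50 cells on both sides, from 1.55-fold to 3.37-fold. For no other gene of the 8 did every cluster pair of both classes pass 1.5-fold in 1 direction.

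Sirpa was also at least 1.5-fold higher with OVA in both pairs in each of the 12 classes, a rule that 11 of 15800 genes met (0.0696%). Mrc1, Itgav, Gatm, Chil4, Ccl24, Eaf1, Hyou1, Npc1 and Neat1 were among the others. In the opposite direction 0.297% of genes met the rule, and none of the 8 was among them. The lymphoid classes had little Sirpa: B cell-like cells 10.5, 39.1, 7.53 and 29.3 CPM, and NK-like cells 5.06, 8.97, 6.03 and 13.7 CPM, with an interval of the NK-like fold under vehicle of 0.552 to 5.00. The level of Sirpa over all cells of a library was 151, 376, 130 and 293 CPM, so free Sirpa RNA can have moved the same way, and its part in the lymphoid classes was not tested. OVA ratios also followed transcript length, the median log2 ratio in macrophage-like cells under vehicle being -0.32 in the shortest 10% of genes and 0.40 in the longest 10%. With the median of genes of its own length class (10% of genes) taken off, Sirpa remained higher by 0.97 and 1.03 in macrophage-like cells and by 0.95 and 0.84 in neutrophil-like cells on the log2 scale. The Sirpb1 genes are close in sequence to Sirpa, and reads may be split among them.

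Of 11 other genes of the CD47 and SIRPα list, chosen with earlier results of these data known, 1 was at least 2-fold higher in macrophage-like than in neutrophil-like cells in all libraries and 2 were lower. This count and those of the lists that follow stand beside the 30.2% and 6.53% of all genes given above. Qpct, a glutaminyl cyclase, had 15.2, 7.05, 13.4 and 8.61 CPM in macrophage-like cells and 0.608 to 0.713 CPM in neutrophil-like cells. Sirpb1b, an activating relative of SIRPα, was the reverse, at 20.8 to 30.4 CPM against 153 to 204 CPM, and did not move with Sirpa: its log2 ratio with OVA was 0.53 and 0.27 in the eaters and -0.41 and 0.01 in the targets. Itgb3, the β3 integrin that associates with CD47, was higher with OVA in both classes, at 1.03, 8.07, 1.2 and 8.66 CPM in macrophage-like cells and 4.01, 23.1, 5.74 and 28.0 CPM in neutrophil-like cells. Fyb, an adaptor that binds SIRPα signalling complexes, was lower with OVA in macrophage-like cells, at 570, 313, 603 and 341 CPM. The phosphatase Ptpn6 (SHP-1), which SIRPα recruits, stood at 262, 240, 246 and 228 CPM in macrophage-like cells, with log2 ratios of -0.13 and -0.11, and is named here after its values were seen. The list's median log2 ratio with OVA in macrophage-like cells was 0.40 and 0.18, beside 0.20 and 0.24 for all genes.

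Cd24a encodes CD24, a small sugar-bearing surface protein and the ligand of Siglec-G, at chr10:43578284-43584265 on the plus strand. Neutrophil-like cells had 562, 1474, 551 and 1142 CPM of Cd24a and the Siglecf-led cluster 505, 1026, 537 and 1216 CPM, so both were high and in both the OVA libraries stood above both libraries without OVA. Macrophage-like cells had 6.79, 71.1, 10.6 and 26.0 CPM. T cell-like cells had 5.24, 69.0, 10.5 and 23.3 CPM and NK-like cells 3.89, 41.9, 11.3 and 9.45 CPM, so the level of the macrophage-like class as a whole is read as background. The same holds for shares of cells: after thinning 0.698%, 8.67%, 1.12% and 2.53% of macrophage-like cells had a Cd24a UMI (unthinned 5.17%, 40.1%, 8.33% and 20.9%) and 0.612%, 5.64%, 0.811% and 2.25% of T cell-like cells did (unthinned 2.29%, 20.4%, 4.72% and 9.26%). The Ccl24-led cluster stood above T cell-like cells without OVA. It had 56.0 CPM (37.5 to 80.4) in Vehicle, from 29 UMIs in 54 cells, and 18.9 CPM (12.1 to 28.1) in Ribavirin. Cd24a has near-identical processed copies in the mouse genome, so its counts are uncertain to that extent.

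In neutrophil-like cells the fold of Cd24a with OVA was 2.62 (2.54 to 2.70) under vehicle and 2.07 (2.01 to 2.14) under ribavirin, 1.63 and 0.56 above the median of all genes on the log2 scale. All 11 neutrophil-like cluster pairs were higher with OVA, from 1.29-fold to 2.50-fold, and 10 of them passed 1.5-fold. The Hspa1b-led cluster had the highest levels, 1107, 2146, 1456 and 1873 CPM, against 512, 924, 386 and 822 CPM in the Cxcr2-led cluster. Leaving out the 3 neutrophil-like clusters that came mostly from 1 library (those led by Hspa1b, Serpinb2 and Cxcl3) lowered the class log2 ratio under vehicle from 1.39 to 0.48, under the 1.5-fold limit, and left it at 1.13 under ribavirin. Plasma cell-like cells also had more Cd24a with OVA, at 930 CPM with OVA against 256 CPM without under vehicle and at 935 against 236 CPM under ribavirin. Median log2 ratios of all genes in plasma cell-like cells were 0.49 and 0.51. In the class of eaters the fold was 10.5 (9.23 to 11.9) and 2.45 (2.13 to 2.82), beside 13.2 (11 to 15.8) and 2.23 (1.86 to 2.66) in T cell-like cells.

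Siglecg encodes Siglec-G, the inhibitory receptor of the pair, which is known from B cells, at chr7:43408204-43418358 on the plus strand. B cell-like cells had 211, 273, 263 and 342 CPM, conventional dendritic (cDC)-like cells 41.1 to 60.7 CPM and pDC-like cells 23.7 to 54.6 CPM. Macrophage-like cells had 0.913, 0.897, 1.2 and 0.555 CPM, from 39, 21, 40 and 10 UMIs, beside 0.40, 1.03, 0.665 and 0.378 CPM in T cell-like cells, from 12, 8, 16 and 4 UMIs. The eaters were above T cell-like cells in 3 of 4 libraries, but the intervals overlapped in each, in Vehicle 0.65 to 1.2 CPM against 0.207 to 0.700 CPM. Overlap of separate intervals does not show that these 2 classes had equal levels. Neutrophil-like cells had 5.23, 2.55, 6.43 and 6.99 CPM, from 43 to 84 UMIs, above both. In plasma cell-like cells Siglecg was higher with OVA, the fold being 3.07 (2.11 to 4.46) for the vehicle pair and 4.21 (2.96 to 6.13) for the ribavirin pair, at 4.46, 13.7, 5.10 and 21.4 CPM. The median log2 ratio of all genes with OVA in that class was 0.49 and 0.51.

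Of 9 other genes of the CD24 and Siglec list, 2 were at least 2-fold higher in macrophage-like cells in all libraries and 4 were lower. Cd22, the B cell Siglec, and Siglec1, which is sialoadhesin of tissue macrophages, were higher in macrophage-like cells, at 17.2 to 26.9 CPM and 10.7 to 20.9 CPM against at most 0.765 CPM in neutrophil-like cells. Siglecf stood at 2.18 to 2.67 CPM in macrophage-like and 21.1 to 51.4 CPM in neutrophil-like cells, and Selp, P-selectin, which binds CD24, at 0.258 to 1.29 CPM and 14.1 to 19.6 CPM. Cd52, a small surface protein that like CD24 binds Siglecs, was lower with OVA in both classes, at 2705, 1011, 2372 and 867 CPM in macrophage-like cells and 3549, 807, 2672 and 1427 CPM in neutrophil-like cells. Cd52 and Cd24a thus differed in opposite directions with OVA in the targets. In macrophage-like cells OVA libraries had more Siglec1, by 0.73 and 0.90 on the log2 scale.

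Pilra encodes an inhibitory paired receptor of myeloid cells that binds O-glycosylated proteins, at chr5:137821952-137836281 on the minus strand. The Siglecf-led cluster had the same level in all 4 libraries, 390, 385, 400 and 417 CPM. Neutrophil-like cells had 455, 155, 343 and 275 CPM, lowest in Vehicle-OVA, monocyte-like cells 124, 142, 78.7 and 181 CPM, and macrophage-like cells 135, 136, 115 and 76.1 CPM. Lymphoid classes had little, with 2.55 to 5.51 CPM in T cell-like cells. The receptor was therefore more abundant in the targets than in the eaters in each library, although in Vehicle-OVA the fold of macrophage-like over neutrophil-like cells was 0.873 (0.834 to 0.913), against 0.276 to 0.335 in the other 3.

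In neutrophil-like cells the fold of Pilra with OVA was 0.341 (0.327 to 0.357) under vehicle and 0.804 (0.760 to 0.850) under ribavirin. Levels differed between clusters, and in the Hspa1b-led cluster they also differed within it. There the fold with OVA was 0.341 (0.269 to 0.438) under vehicle and 0.734 (0.511 to 1.07) under ribavirin. The Cxcr2-led cluster had 456, 347, 380 and 355 CPM and the cluster led by Ifit3, an interferon-induced gene, 548, 427, 531 and 476 CPM, while the Hspa1b-led cluster had 183, 62.5, 121 and 88.6 CPM and the Serpinb2-led cluster 128 CPM in Vehicle-OVA. Those last 2 clusters held most neutrophil-like cells of Vehicle-OVA, and without the 3 clusters mostly of 1 library the class log2 ratio under vehicle was -0.56 in place of -1.54. Of 11 neutrophil-like cluster pairs 9 were lower with OVA, and the interval excluded 1 in 3 of them.

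Of the 6 other genes of the PILR list that were found in the files, 2 were at least 2-fold higher in macrophage-like cells and none was lower in all libraries. Both were listed as ligands and stood at low levels: Cd99l2 at 5.57 to 12.8 CPM and Pianp at 3.50 to 9.72 CPM in macrophage-like cells, against at most 0.577 CPM of either in neutrophil-like cells. Tyrobp, which encodes the adaptor DAP12 of the activating partner PILRβ, was lower with OVA in both classes, at 2592, 1181, 2428 and 1121 CPM in macrophage-like cells and 5500, 1560, 4444 and 1865 CPM in neutrophil-like cells. The activating gene Pilrb2 had 137, 38.7, 95.2 and 94.9 CPM in neutrophil-like cells, lowest in Vehicle-OVA as Pilra was.

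Calr encodes calreticulin, a chaperone of the endoplasmic reticulum that becomes an eat-me signal when it reaches the cell surface, at chr8:84841850-84846934 on the minus strand. Neutrophil-like cells were the lowest of the 12 classes in all 4 libraries, at 109, 86.1, 99.1 and 110 CPM. Macrophage-like cells had 650, 780, 662 and 704 CPM, a fold over neutrophil-like cells of 5.99 (5.60 to 6.41), 9.06 (8.69 to 9.45), 6.68 (6.32 to 7.07) and 6.40 (5.92 to 6.93). Plasma cell-like cells, which secrete antibody, had the most, 1387, 1549, 1308 and 1882 CPM. The mRNA level says nothing of how much protein is at the surface.

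Calr stayed under 1.5-fold with OVA in both classes, and its direction in neutrophil-like cells was not the same in the 2 pairs. The fold was 1.2 (1.18 to 1.22) and 1.06 (1.04 to 1.09) in macrophage-like cells and 0.793 (0.735 to 0.857) and 1.11 (1.01 to 1.22) in neutrophil-like cells. Within the 3 macrophage-like clusters it lay between 0.845 and 1.07. Within neutrophil-like clusters it ran from 0.676 (0.529 to 0.878) in the Hspa1b-led cluster to 2.48 (1.73 to 3.65) in the Ngp-led cluster, both under vehicle. The class log2 ratio under vehicle in neutrophil-like cells, -0.33, was -0.72 with a mitochondrial limit of 5%, -0.70 at clustering resolution 2.0 and -0.93 with the Siglecf-led cluster added, and 0.039 with TMM scaling. Under ribavirin the ratio, 0.15, ran from -0.42 with TMM scaling to 0.69 with classes from single-cell markers. It was -0.059 with the Siglecf-led cluster added, so the difference in direction between the pairs depended on the processing. After thinning, 7.64% to 10.7% of neutrophil-like cells and 43.5% to 46.5% of macrophage-like cells had a Calr UMI (unthinned 18.8% to 27.6% and 87.9% to 94.2%).

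Genes whose levels across 51 sums of a class in a library were most like those of Calr were chaperones of the same compartment, Pdia6 (Pearson r = 0.94), Pdia4 (0.91) and Sdf2l1 (0.90). These sums share libraries and depth, and the correlations are descriptions. Because these genes moved together over classes, the 250 bases before the RefSeq start of Calr are shown (GRCm38.p6, chr8:84846932-84847181, minus strand, 5′ to 3′), with a match to the endoplasmic reticulum stress element, CCAAT then 9 bases then CCACG on either strand, in capitals:
Calr: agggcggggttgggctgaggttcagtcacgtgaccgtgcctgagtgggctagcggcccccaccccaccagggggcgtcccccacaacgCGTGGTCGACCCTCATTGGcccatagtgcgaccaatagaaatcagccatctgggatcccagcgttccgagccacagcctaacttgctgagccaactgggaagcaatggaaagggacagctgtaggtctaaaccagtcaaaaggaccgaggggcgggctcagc
The match lies 143 bases before the start, on the strand opposite to the gene. Such a match was found in 39 of 32851 RefSeq promoter windows of 300 bases, that is 250 before and 50 after a start (0.119%), which is the window searched for every gene named here. It was found in 1 of the 6 member genes with a window in that table, and in 4 of 8 partner or like genes of this pathway that were searched:
Pdia6: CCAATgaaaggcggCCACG
Canx: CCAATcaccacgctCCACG
Hspa5: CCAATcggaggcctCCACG
Hsp90b1: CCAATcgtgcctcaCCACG
No match was found in the windows of Pdia4, Sdf2l1, Pdia3 and Lrp1. Of the genes most like Calr named above, only Pdia6 thus had a match. These are matches of letters and were not tested for function.

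Of 8 other genes of the calreticulin list, 6 were at least 2-fold higher in macrophage-like than in neutrophil-like cells in all libraries and 1 was lower, and the list's median log2 ratio was 2.44 beside 0.74 for all genes. Pdia4, a disulfide isomerase, had 63.1 to 170 CPM in macrophage-like and 4.97 to 9.10 CPM in neutrophil-like cells. Lrp1, the receptor through which surface calreticulin is recognised, had 145, 284, 154 and 243 CPM in macrophage-like cells and 14.2, 11.4, 14.8 and 14.3 CPM in neutrophil-like cells, and with OVA it was higher by 0.97 and 0.65 on the log2 scale in the eaters. Ero1l, an oxidase of the endoplasmic reticulum, was the exception: it was higher in neutrophil-like cells, at 88.8, 663, 90.9 and 423 CPM against 25.3, 129, 27.0 and 66.0 CPM, and higher with OVA in both classes. Of the list, 4 genes were at least 1.5-fold higher with OVA in both pairs in macrophage-like cells and 1 in neutrophil-like cells, beside 17.2% and 7.91% of all genes, and none was lower, beside 5.89% and 4.12%.

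Lrpap1 encodes RAP, the chaperone that escorts LRP1 and its relatives through the secretory pathway, at chr5:35091501-35105766 on the minus strand. Macrophage-like cells had 77.9, 84.9, 79.1 and 78.8 CPM, the smallest ratio of highest to lowest library among the 8 genes in that class. Neutrophil-like cells had 6.68, 6.48, 7.42 and 6.83 CPM, the lowest class in all 4 libraries. The fold of eaters over targets was 11.6 (8.93 to 15.5), 13.1 (11.3 to 15.3), 10.7 (8.70 to 13.2) and 11.5 (8.49 to 16.1). T cell-like cells had 25.0 to 31.1 CPM, above neutrophil-like cells.

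With OVA the fold of Lrpap1 in macrophage-like cells was 1.09 (1.03 to 1.15) and 0.996 (0.933 to 1.06), so the class level was nearly even, while within clusters 5 of 6 pairs were lower, down to 0.618-fold. The Ccl24-led cluster, which prevailed with OVA, had 114, 86.4, 121 and 81.6 CPM and the C1qb-led cluster 75.5, 60.0, 77.2 and 47.7 CPM. Of 10 RAP clients with at least 50 UMIs, out of 12 listed, 5 were at least 2-fold higher in macrophage-like cells in all libraries and 1 was lower. Lrp1 is given above, and Lrp6, a Wnt co-receptor, had 46.4 to 85.0 CPM in macrophage-like and 3.46 to 6.83 CPM in neutrophil-like cells. Sorl1, a sorting receptor, was the client on the neutrophil side, at 714 to 987 CPM against 94.4 to 123 CPM. Lrp12 was higher with OVA in both classes, at 9.46, 27.6, 10.6 and 28.8 CPM in macrophage-like and 2.19, 6.18, 1.38 and 4.55 CPM in neutrophil-like cells.

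Anxa1 encodes annexin A1, a calcium-dependent lipid-binding protein that neutrophils store and release and that acts on formyl peptide receptors, at chr19:20373428-20390944 on the minus strand. Neutrophil-like cells had 433, 392, 516 and 1118 CPM, with Ribavirin-OVA far above the other 3 libraries. A small cluster led by Ngp and Camp, which are granule genes of immature neutrophils, had 2738, 3364, 2604 and 2895 CPM, against 48.2, 47.0, 37.6 and 70.0 CPM in the Hspa1b-led cluster. The former cluster held 2.79%, 1.42%, 5.42% and 16.0% of neutrophil-like cells, most in Ribavirin-OVA. Within neutrophil-like clusters 5 of 11 pairs were higher with OVA and 6 lower.

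The class fold of Anxa1 with OVA in neutrophil-like cells was 0.906 (0.873 to 0.941) under vehicle and 2.17 (2.09 to 2.24) under ribavirin. Without the 3 clusters mostly of 1 library the log2 ratios were 1.19 and 1.21 in place of -0.14 and 1.11. In macrophage-like cells Anxa1 had 43.5, 98.9, 37.3 and 88.1 CPM, a fold of 2.27 (2.14 to 2.42) and 2.36 (2.19 to 2.55). Within the clusters the same gene was no higher with OVA beyond 1.10-fold: the C1qb-led cluster had 48.0, 52.6, 39.5 and 40.8 CPM, the Ccl24-led cluster 151, 107, 94.5 and 99.0 CPM, and the Ccl12-led cluster 16.3, 9.99, 12.6 and 7.11 CPM. Without the Ccl24-led cluster, an alternative chosen after seeing the data, the log2 ratios of the class were -0.29 and -0.63. Monocyte-like cells had 268, 297, 263 and 303 CPM of Anxa1, above macrophage-like cells in all libraries, and the summed level of 10 monocyte markers in macrophage-like cells was 2490, 5530, 2356 and 5690 CPM. The part of cluster make-up and of monocyte transcripts in the class difference was not tested. Epithelial-like cells had 450, 1200, 414 and 937 CPM, 2.66-fold and 2.26-fold higher with OVA.

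Of 10 other annexins, formyl peptide receptors and ligands with at least 50 UMIs, out of 11 listed, 3 were at least 2-fold higher in macrophage-like cells in all libraries and 4 were lower. Anxa4 had 71.3 to 203 CPM and Anxa5, which binds phosphatidylserine, 343 to 425 CPM in macrophage-like cells, against 4.37 to 10.7 CPM and 23.8 to 46.2 CPM in neutrophil-like cells. Fpr1, a receptor of formyl peptides, was on the neutrophil side, at 138 to 324 CPM against 3.78 to 32.7 CPM, and so was S100a11, an annexin partner, at 4649, 1218, 4378 and 1515 CPM against 399, 289, 386 and 154 CPM. In macrophage-like cells OVA libraries had more Anxa2, at 60.3, 322, 73.5 and 257 CPM, and in neutrophil-like cells more Anxa3, at 36.2, 57.7, 34.3 and 107 CPM. S100a11 was lower with OVA in neutrophil-like cells by 1.93 and 1.53 on the log2 scale.

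Read together, 3 of the 8 genes (Sirpa, Cd24a and Anxa1) were at least 1.5-fold higher with OVA in both pairs in macrophage-like cells, where 17.2% of 12270 genes met the rule, and none was lower, against 5.89% of genes. Within macrophage-like clusters all 6 pairs were higher for Sirpa and for Cd24a, whereas for Anxa1 no interval lay above 1. Cd24a intervals lay above 1 in 3 of the 6 pairs, and its level in the class as a whole is read as background. In neutrophil-like cells 2 of 8 (Sirpa and Cd24a) were higher in both pairs, against 7.91% of 10106 genes, and none was lower, against 4.12%. The ligand Cd24a in the targets and the receptor Sirpa in both classes were thus higher with OVA, while Cd47 and Calr passed 1.5-fold in neither class in both pairs.

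**Figure D3:**
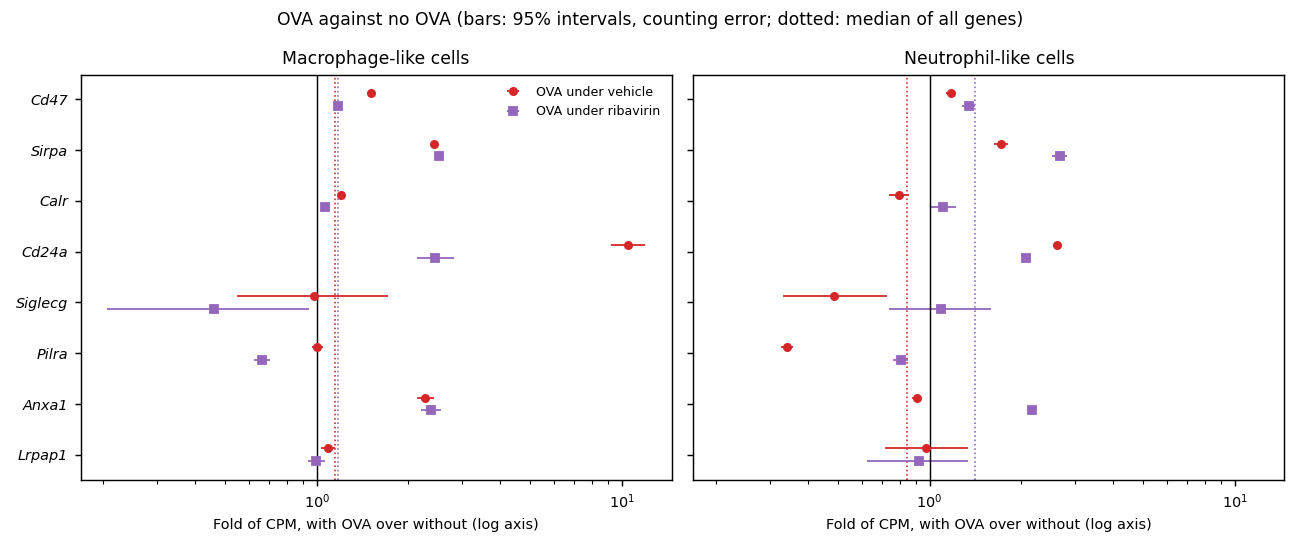
Fold of CPM with OVA over without OVA for each gene, under vehicle and under ribavirin, in macrophage-like (left) and neutrophil-like cells (right) on a logarithmic axis, with 95% intervals for counting error. Dotted lines mark the median of all genes, and Sirpa lies to the right of them in all 4 pairs.

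**Figure D4:**
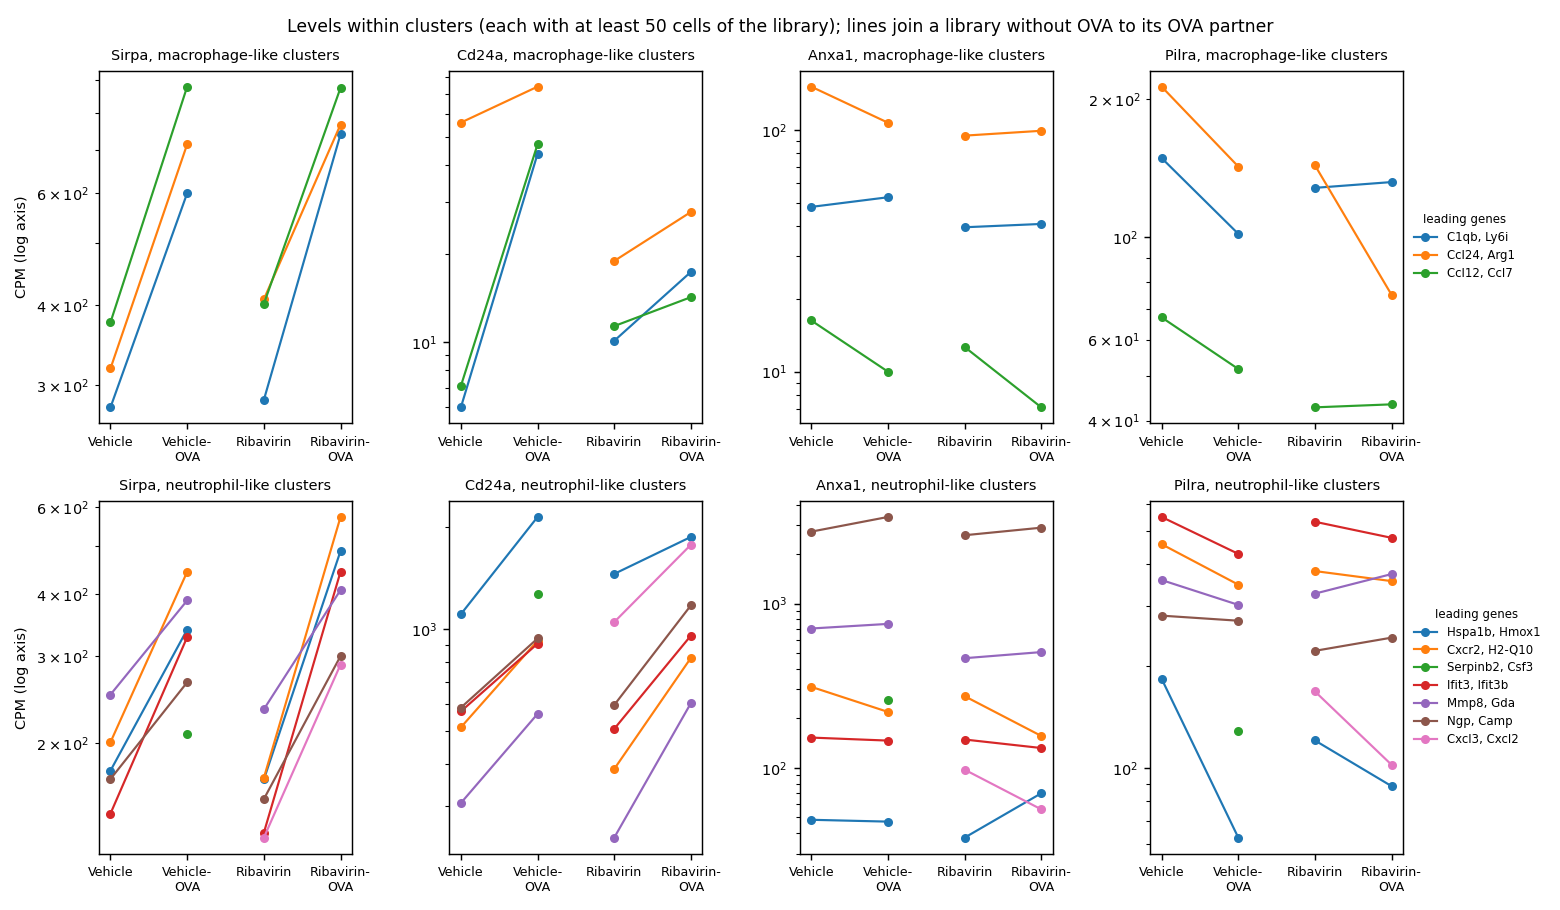
CPM (logarithmic axes) of Sirpa, Cd24a, Anxa1 and Pilra within single clusters of macrophage-like (top) and neutrophil-like cells (bottom), with lines joining each library without OVA to its OVA partner. Sirpa lines all run upward, from 1.55-fold to 3.37-fold in neutrophil-like clusters, whereas Anxa1 lines differ in height between clusters and run both ways.

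With ribavirin no gene of the 8 was past 1.5-fold in the same direction without and with OVA in macrophage-like or in neutrophil-like cells. Elsewhere among the 12 classes Siglecg was past it upward in NK-like cells, from 0 to 4 UMIs per library, and Pilra downward in B cell-like and epithelial-like cells and Anxa1 downward in B cell-like cells. The share of all genes past 1.5-fold in those classes is not given here. Median log2 ratios of all genes, without and with OVA, were 0.11 and -0.01 in B cell-like and -0.36 and 0.02 in epithelial-like cells. In NK-like cells they were 0.02 and 0.01. In macrophage-like cells 0.562% of genes were higher and 0.0326% lower by that rule, and in neutrophil-like cells 2.45% were higher and 0.158% lower. These pairs share each library with an OVA pair. Sirpa stood at 1.04-fold (1.02 to 1.07) and 1.08-fold (1.06 to 1.11) with ribavirin in macrophage-like cells, without and with OVA. In neutrophil-like cells Sirpa was 0.882-fold (0.825 to 0.944) without OVA and 1.37-fold (1.32 to 1.44) with OVA, beside median log2 ratios of all genes of -0.14 and 0.62. Anxa1 in neutrophil-like cells was 1.19-fold (1.15 to 1.24) and 2.85-fold (2.77 to 2.94), and Pilra in macrophage-like cells 0.852-fold (0.817 to 0.887) and 0.561-fold (0.527 to 0.598).

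Of 11 other do-not-eat-me genes, 1 was at least 2-fold higher in macrophage-like cells in all libraries and 2 were lower, beside 30.2% and 6.53% of all genes. With OVA 3 were higher and 2 lower in macrophage-like cells, beside 17.2% and 5.89% of all genes, and 3 were higher and none lower in neutrophil-like cells, beside 7.91% and 4.12%. Cd274, which encodes PD-L1, had 324, 1359, 417 and 526 CPM and Lilrb4a, an inhibitory receptor, 943, 2012, 1107 and 1125 CPM in neutrophil-like cells, both above macrophage-like cells (77.5 to 170 and 263 to 436 CPM). Slamf7 was on the macrophage side, at 121, 48.8, 98.1 and 49.7 CPM against 4.13 to 10.0 CPM. Pecam1, CD31, whose homophilic binding detains live cells from uptake, was higher with OVA in both classes, at 8.60, 83.5, 17.2 and 69.1 CPM in macrophage-like and 5.95, 85.5, 7.50 and 68.4 CPM in neutrophil-like cells. Clec12a, an inhibitory receptor for signals of dead cells, differed in opposite directions, at 184, 61.2, 164 and 91.6 CPM in macrophage-like and 38.6, 114, 53.6 and 171 CPM in neutrophil-like cells.

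Among 8 genes of phosphatidylserine exposure, 4 were at least 1.5-fold higher with OVA in both pairs in macrophage-like cells and 2 in neutrophil-like cells, and none was lower, beside 17.2% and 7.91% of all genes higher. Tmem30a, the partner of the flippases that keep the lipid inside, had 69.1, 172, 71.8 and 168 CPM in macrophage-like cells. The scramblase Ano6 was higher in macrophage-like cells, at 38.1 to 98.1 CPM against 8.99 to 32.0 CPM, and the flippase genes Atp11a and Atp11b in neutrophil-like cells, at 83.6 to 242 CPM and 139 to 231 CPM against 31.5 to 61.3 CPM and 44.1 to 54.7 CPM. Plscr1 had 110 to 186 CPM in neutrophil-like and 32.3 to 41.7 CPM in macrophage-like cells. Of 10 genes that tissue dissociation induces, 2 were higher and 1 lower with OVA in macrophage-like cells, beside 17.2% and 5.89% of all genes. Among these Egr1 had 782, 1421, 927 and 1600 CPM and Atf3 760, 376, 843 and 427 CPM. Fosb was higher in macrophage-like cells (666 to 798 against 196 to 344 CPM) and Dusp1 in neutrophil-like cells (5301 to 7650 against 1281 to 2367 CPM). In neutrophil-like cells 2 of the 10 were higher, beside 7.91% of all genes. Among them was Hspa1b at 54.2, 397, 23.3 and 211 CPM, whose libraries had the same order as for Cd24a, and the part of stress in these levels was not tested.

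Genes whose levels over the same 51 sums were most like those of a member were, for Sirpa, the myeloid receptor genes Pirb, Csf2rb and Nfam1 (r = 0.91 each), and for Pilra, Igsf6 (0.96), Pilrb2 (0.96) and Msrb1 (0.95). Siglecg was most like H2-Ob (0.87), Chst3 (0.84) and Gm20506 (0.84), Lrpap1 most like Tmem5 (0.86), Vkorc1 (0.84) and Mrpl27 (0.82), and Anxa1 most like St3gal5, Klf3 and Mocos (0.81 each). Cd47 was most like Orai3 (0.80), Slc44a2 (0.80) and Foxred2 (0.79), and Cd24a most like 9130230L23Rik (0.76), Steap4 (0.75) and Entpd3 (0.74). Among the 8 themselves the highest correlations were those of Pilra with Sirpa (0.74), Pilra with Anxa1 (0.58) and Lrpap1 with Calr (0.57). Cd47 and its receptor gene had a correlation of 0.33, and Cd24a and Siglecg one of 0.41.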

How the data were processed

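Per the labels, nasal mucosa was digested, CD45+ cells were enriched and libraries were made on a 10x Chromium instrument. The authors deposited whole-number UMI counts per gene and called cell, from Cell Ranger 5.0.0 on mm10 per the submitters' processing notes, not normalized. The counting settings for strand and introns are not given in the sources used here.

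Cells were kept if they had 200 genes or more, 500 UMIs or more and a mitochondrial share below 10%. Doublets were scored against simulated doublets, and the expected share (0.4% per 1000 barcodes, 4.05% to 11.2% of cells marked) was removed, because no threshold between modes could be had. The 4 libraries were clustered together (2000 variable genes, 30 principal components, 15 neighbours, leidenalg 0.10.2 at resolution 1.0, no batch correction). Clusters were named "-like" from a marker list, by fold over the mean of the other clusters with 10 CPM added. This naming rule was changed after a first clustering had been seen, and 4 clusters stayed unnamed. Differences from the study's cell types can come from that.

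For every class the UMIs of a library were added up and scaled to CPM, with exact Poisson intervals, exact conditional binomial intervals for folds (scipy 1.17.1) and Clopper-Pearson intervals for shares. Log2 ratios have 1 CPM added. Rules of size were 2-fold between classes and 1.5-fold between libraries, over genes with at least 50 UMIs. The procedures were tested on simulated data. The 8 genes and the gene lists were chosen with earlier results of these data known. Named genes are all members, per list the extremes of class and OVA ratios past those limits, and per member the 3 genes most correlated over sums of at least 50 cells. Cd99 was not found. Some genes that meet these rules are not reported here. Positions are from GENCODE M21 (98.7% of gene IDs matched) and promoters from RefSeq. Alternatives, among them edgeR 4.0.16 TMM factors, are described in the closing section.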

Additional observations from a re-analysis of the deposited data

Results flagged for a closer look

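For 3 members the signs of the ratios were opposite in the 2 pairs of 1 contrast, with both intervals excluding equality and at least 1 of them past 1.5-fold. With 1 library in each group the difference between the pairs was not tested. Cd24a in macrophage-like cells had a log2 ratio of ribavirin over vehicle of 0.58 without OVA and -1.41 with OVA. The level there was close to that of T cell-like cells in each library, and the summed neutrophil markers in macrophage-like cells were 466 and 1817 CPM in Vehicle and Vehicle-OVA, and 751 and 568 CPM in Ribavirin and Ribavirin-OVA. Pilra in neutrophil-like cells had a log2 ratio of ribavirin over vehicle of -0.41 without OVA and 0.82 with OVA. The Hspa1b-led cluster, low in Pilra, held 51.5% of the neutrophil-like cells of Vehicle-OVA and 27.4% of those of Ribavirin-OVA. Within that cluster the fold of ribavirin over vehicle was 0.659 (0.445 to 0.964) without OVA and 1.42 (1.14 to 1.75) with OVA. In the Cxcr2-led cluster it was 0.834 (0.786 to 0.884) and 1.02 (0.905 to 1.16), and in the Ngp-led cluster 0.788 and 0.892. The part of cluster make-up was not tested. Anxa1 in neutrophil-like cells had a log2 ratio with OVA of -0.14 under vehicle and 1.11 under ribavirin. The sign under vehicle depended on the processing. That ratio was -0.40 with the mean of single-cell CPM and -0.17 with at least 2000 UMIs per cell. It was 0.23 with TMM scaling, 0.53 with classes from single-cell markers and 1.19 without the clusters mostly of 1 library. The Ngp-led cluster, high in Anxa1, held 1.42% of the neutrophil-like cells of Vehicle-OVA and 16.0% of those of Ribavirin-OVA.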

How the results depend on the processing

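No ratio of macrophage-like over neutrophil-like cells changed sign under any alternative, and 87 values moved by less than 1 SD of the 4 libraries while 29 moved by more. The mean log2 ratios that moved further were as follows. With TMM scaling they were -0.91 for Cd47, 0.27 for Sirpa, 2.11 for Calr and 2.74 for Lrpap1. With classes taken from marker UMIs of single cells they were 0.62 for Sirpa, 1.48 for Calr, -3.27 for Cd24a, -0.76 for Siglecg, -2.12 for Anxa1 and 1.70 for Lrpap1. With at least 2000 UMIs per cell they were -0.52 for Cd47, -2.25 for Pilra, -4.78 for Anxa1 and 3.16 for Lrpap1. With the Siglecf-led cluster added to neutrophil-like cells they were 0.69 for Sirpa, 2.33 for Calr and 2.50 for Lrpap1. Sirpa was 1.17 with a mitochondrial limit of 20%. Lrpap1 was 2.91 with a mitochondrial limit of 5%, 3.14 with doublets kept, 3.16 at resolution 2.0, 3.13 with separate clustering of the libraries and 3.22 with the mean of single-cell CPM. Without the Ccl24-led macrophage-like cluster, an alternative chosen after seeing the data, Anxa1 was -4.06 and Lrpap1 3.22.

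Sirpa was higher with OVA in all 4 pairs under every alternative, by 0.94 to 1.42 in macrophage-like and 0.52 to 1.59 in neutrophil-like cells on the log2 scale. The 3 members higher with OVA in macrophage-like cells became 1, Sirpa, without the Ccl24-led cluster. The 2 members higher in neutrophil-like cells became 1, Cd24a, with a mitochondrial limit of 5%, at resolution 2.0 or with the Siglecf-led cluster added, and 1, Sirpa, with TMM scaling, under which 1 member, Pilra, was lower. Without neutrophil-like clusters mostly of 1 library, also chosen after seeing the data, there were again 2, but these were Sirpa and Anxa1. Ratios past 1.5-fold in the main processing that changed sign were those of Anxa1 with OVA in macrophage-like cells (-0.57 and -0.46 with at least 2000 UMIs per cell, -0.29 and -0.63 without the Ccl24-led cluster). Those of Pilra in macrophage-like cells did so too (0.065 with OVA under ribavirin at a mitochondrial limit of 20%, and 0.011 and 0.048 with ribavirin under OVA with at least 2000 UMIs and without the Ccl24-led cluster). That of Cd24a with ribavirin under OVA in macrophage-like cells also did (1.2 with classes from single-cell markers). Smaller ratios changed sign as well, and not all of them are listed. They include those of Cd47, Calr and Anxa1 with OVA in neutrophil-like cells given above. The ratio of Cd24a with ribavirin under OVA in neutrophil-like cells, -0.37, was 0.37 without the clusters mostly of 1 library. The cause was not tested.

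No paired analysis was possible because each group has 1 library and no replicate. Depth limits Siglecg most, with 10 to 84 UMIs per library in either class. Clusters were rebuilt here, mice per library are unknown, and differences between libraries cannot be told apart from differences between mice or preparations.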

Other observations

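In macrophage-like cells both formyl peptide receptor genes differed in opposite directions with OVA under vehicle and under ribavirin, which was noticed after their values had been seen and was not tested. With libraries in the order used above, Fpr1 had 9.86, 32.7, 14.6 and 3.78 CPM, log2 ratios with OVA of 1.63 under vehicle and -1.71 under ribavirin. Fpr2 had 74.7, 144, 79.1 and 29.7 CPM, log2 ratios of 0.94 and -1.39. The summed neutrophil markers in macrophage-like cells, at 466, 1817, 751 and 568 CPM, were also highest in Vehicle-OVA. The part of free neutrophil RNA in these levels was not tested. In neutrophil-like cells Fpr1 had 161, 324, 242 and 138 CPM, again opposite in sign (1.01 and -0.80), whereas Fpr2 had 297, 738, 346 and 609 CPM and was higher in both pairs (1.31 and 0.81).

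Thbs1, which encodes thrombospondin, a ligand of CD47, had 340, 1831, 809 and 570 CPM in neutrophil-like cells and 256, 751, 374 and 453 CPM in macrophage-like cells, in both classes highest in Vehicle-OVA.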
